A study of Mus musculus with 20 samples.

Results

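The measured quantity was the difference between 2 tumor effects: the log2 change from naive colon to tumor in eosinophils minus the log2 change from naive colon to tumor in macrophages. It was computed for each gene from the 20 of 20 libraries of the series in 1 fit, and 15620 of 50600 gene entries had enough reads to be tested. The cells were sorted by flow cytometry from enzymatically digested colons of C57BL/6 mice. The 4 groups were eosinophils of naive mice (2 libraries), eosinophils from inside tumors, induced by a procedure named CAC in the labels (7), macrophages of naive mice (5) and macrophages from inside those tumors (6). The mice of all groups are wild type by the labels, which give no age, sorting marker or animal number, and which do not say whether libraries of a group came from separate animals. The p-values therefore measure only the spread between these libraries, which may be technical.

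Eosinophils are granulocytes that live in the wall of the healthy gut and store cytotoxic granule proteins and ribonucleases. Macrophages are its resident phagocytes, which are replaced from blood monocytes and present antigen on MHC class II. Both cell types are found in tumors of the colon. A gene called here is one for which the shift from colon to tumor was not the same in these cells, which includes genes that moved in opposite directions and genes that moved in 1 cell type alone. A value in scaled reads is the number of reads recovered from the deposited tables and brought to a common library size over both cell types. All changes are on the log2(scaled reads + 1) scale.

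The angiogenic factor Vegfa, the chemokine Ccl2 and the enzyme Cbr2 went in opposite directions in eosinophils and macrophages. Of the 15620 genes tested, 610 (3.91%) were called for a difference in tumor effect at an adjusted p under 0.05 (limma). The log2 change was higher in eosinophils for 280 genes (1.79%) and lower for 330 (2.11%), and 2867 genes had an unadjusted p under 0.05. These shares of all tested genes are the background for each count of called list members below. The called differences ran from −5.44 to 7.81, and the smallest absolute one was 0.85. The median difference over all tested genes was −0.06.

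Opposite signs of the 2 log2 changes were the most common form among called genes. Among the 330 genes with a lower change in eosinophils, 251 had a negative value in eosinophils and a positive one in macrophages, 73 were negative and 6 positive in both. Among the 280 with a higher change in eosinophils, 185 were positive in eosinophils and negative in macrophages, 82 were positive in both and 10 negative in both, while 3 had no read in the eosinophil groups. Both log2 changes were beyond 1 in opposite directions for 83 of the 610 called genes, against 1.75% of all tested genes. A call needs a large difference between the 2 changes, which favours opposite signs, so these counts are a description with no test. The eosinophil change was the larger in size for 486 called genes and the macrophage change for 124. The eosinophil change rests on 2 naive libraries and had the larger SE, for Vegfa 0.32 against 0.24 in macrophages. No share over all tested genes was computed, so this count does not rank the response of the cell types. A gene with few reads in 1 cell type cannot move far there on this scale: 36 called genes had a mean under 10 scaled reads in both eosinophil groups and 14 in both macrophage groups.

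**Figure D1:**
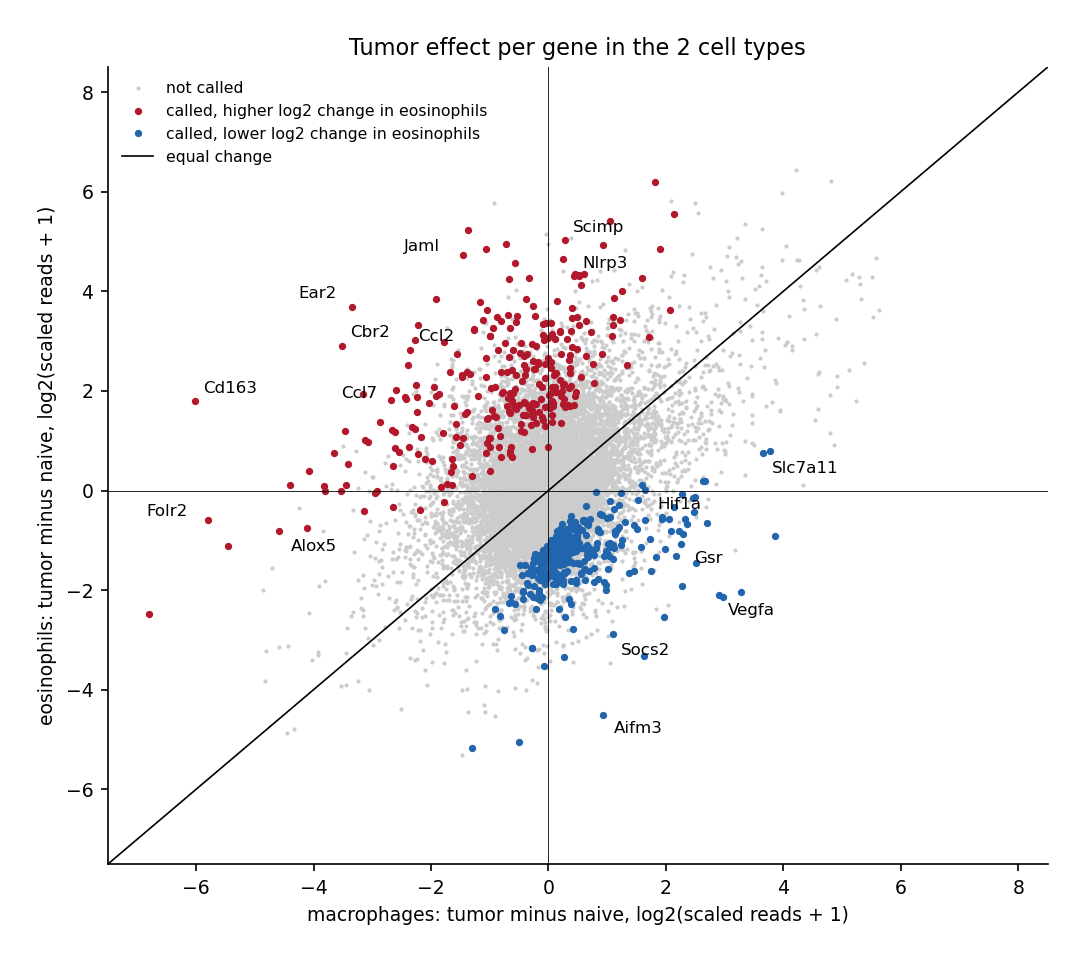
Each point is 1 of 15620 tested genes, with the log2 change from naive to tumor in macrophages on the horizontal axis and in eosinophils on the vertical axis. Red and blue points are the 280 and 330 called genes; Cd163 and Cbr2 lie at the upper left, and Vegfa and Socs2 at the lower right.

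Most called genes differed between the cell types in naive colon already. The naive mean was higher in eosinophils for 318 of the 330 genes with a lower change there, and higher in macrophages for 271 of the 280 with a higher change in eosinophils. Over all tested genes, 50.6% had the higher naive mean in eosinophils. The gap between the cell types, as an absolute log2 ratio of means, was narrower in tumors than in naive colon for 516 of 610 called genes (84.6%), against 55.6% of the tested genes. Its median went from 2.39 to 0.87 over the called genes and from 0.87 to 0.80 over the tested ones. The naive libraries enter both the call and the gap, so these shares are a description with no test.

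Depth ran from 1477255 to 8520874 recovered reads per library, with 7469714 and 4452513 in the naive eosinophil libraries. Macrophage markers summed to 1044 to 1686 CPM (counts scaled to equal library totals) in eosinophil libraries and 19584 to 34092 in macrophage libraries. Eosinophil markers summed to 836 to 9735 CPM in eosinophil libraries, with tumor eosinophil library 4 the highest, and to 8.25 to 71.6 in macrophage libraries. Neutrophil markers reached 4581 to 14526 CPM in eosinophil libraries and exceeded the eosinophil markers in each of them; Elane was at 0 in both naive ones. They summed to 38.6 to 58.9 in macrophages of naive colon and 103 to 646 in those of tumors. Mitochondrially encoded transcripts took 34.9 and 35.2% of reads in tumor eosinophil libraries 2 and 3, and at most 25.1% elsewhere. Transcripts of B and plasma cells summed to 4489 to 17636 CPM in eosinophil and 9431 to 75692 in macrophage libraries. In sorted bulk samples, fewer cells of a type and less RNA per cell cannot be told apart.

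Angiogenic factors and hypoxia targets were the list with the most genes whose change was lower in eosinophils. Hypoxia-inducible factor, of which Hif1a encodes the oxygen-regulated subunit, drives transcription of glycolytic enzymes, glucose uptake and Vegfa when oxygen is low. Of 26 members tested, 8 were called with a lower change in eosinophils (2.11% of all tested genes) and none with a higher one. The median difference was −0.74, from a median log2 change of 0.06 in eosinophils and 1.04 in macrophages, and 21 of 26 differences were negative. The called members were Vegfa, Hif1a, the glucose transporter Slc2a1, the matrix glycoprotein Thbs1, the glycolytic enzymes Aldoa and Pgam1, the oxidase Ero1l and the lactate dehydrogenase Ldha.

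Vegfa, the growth factor of vessel formation (chromosome 17, 46016993 to 46032369, GRCm38), had the smallest p among the genes with a lower change in eosinophils. In naive eosinophils it held 4022 and 9508 scaled reads, and in tumor eosinophils 831 to 2390.2 with a median of 1468. In naive macrophages the values were 268, 223, 191, 308 and 265, and in tumor macrophages they ran from 1310.4 to 2534 with a median of 1912. Groups did not overlap in either cell type: tumor values were the lower ones in eosinophils and the higher ones in macrophages. The log2 change was −2.09 ± 0.32 (SE) in eosinophils and 2.91 ± 0.24 in macrophages, a difference of −5.00 ± 0.40 (adjusted p = 7.32e-08, limma). In naive colon the eosinophil mean was 2696% of the macrophage mean, and in tumors 79.7%. The difference stayed called in all 36 alternatives, between −5.64 and −4.33.

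Hif1a (chromosome 12, 73901375 to 73947530) held 1387 and 2257 scaled reads in naive eosinophils and 882 to 1674, median 1124, in tumor eosinophils. Naive macrophages held 334, 473, 417, 446 and 439, and tumor macrophages 1071 to 1642, median 1292. The eosinophil groups overlapped and the macrophage groups did not. The difference was −2.23 ± 0.30 (adjusted p = 1.08e-04). Slc2a1 (chromosome 4, 119108711 to 119137983) held 311 and 648 in naive and 236 to 347 in tumor eosinophils, and its macrophage values went from 41.8 to 125 in naive colon to 210.4 to 674 in tumors. Again only the macrophage groups were apart, and the difference was −3.03 ± 0.49 (adjusted p = 9.60e-04). Thbs1, which binds growth factors and limits vessel growth, differed by −3.34 ± 0.55 (adjusted p = 0.00112), with a macrophage change of 2.70 ± 0.33 and an eosinophil change of −0.65 ± 0.44. For Aldoa (−1.47), Pgam1 (−1.50), Ero1l (−1.62) and Ldha (−0.85) the macrophage changes were 1.11, 1.21, 1.64 and 0.82, and the eosinophil changes were between −0.36 and 0.01. Other members did not pass: Hk2 differed by −0.70, Pgk1 by −0.89, Eno1 by −0.36 and Gapdh by 0.03. Calls in this direction were 10 without naive eosinophil library 1, with 1 in the other direction, 6 without library 2 and 6 with limma-voom.

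Promoters of some called hypoxia targets are shown. The genes were selected by their call in the same direction, so their shared direction is not a separate result. Windows are the 250 bases before the transcription start in RefSeq (GRCm38.p6), printed 5′ to 3′ on the gene's strand, and capitals mark ACGTG or its reverse complement CACGT, the core letters to which hypoxia-inducible factor binds.
Ldha, chr7:46845554-46845803, plus strand: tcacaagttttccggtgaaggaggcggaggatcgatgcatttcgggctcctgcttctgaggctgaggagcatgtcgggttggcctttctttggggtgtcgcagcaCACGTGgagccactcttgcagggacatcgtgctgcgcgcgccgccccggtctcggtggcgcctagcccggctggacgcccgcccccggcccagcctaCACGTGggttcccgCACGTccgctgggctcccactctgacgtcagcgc
Slc2a1, chr4:119108495-119108744, plus strand: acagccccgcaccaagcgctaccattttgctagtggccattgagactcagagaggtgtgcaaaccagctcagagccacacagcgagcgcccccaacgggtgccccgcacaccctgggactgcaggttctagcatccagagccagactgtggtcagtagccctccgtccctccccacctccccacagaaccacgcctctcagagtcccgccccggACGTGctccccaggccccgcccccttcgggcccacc
Hif1a, chr12:73907617-73907866, plus strand: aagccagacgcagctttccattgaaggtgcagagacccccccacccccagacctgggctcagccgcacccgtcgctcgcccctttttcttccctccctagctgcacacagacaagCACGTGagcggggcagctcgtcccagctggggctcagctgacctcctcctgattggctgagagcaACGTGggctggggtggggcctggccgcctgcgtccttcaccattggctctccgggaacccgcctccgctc
Of the 8 called members, 6 had a window, and 4 of these held ACGTG on either strand: Ldha (5 matches, where CACGTG counts on both strands), Hif1a (3), Slc2a1 (1) and Pgam1 (1). For each gene only the window at the first listed start was searched. Those of Vegfa and Aldoa held no match, though 2 windows are listed for Vegfa and 3 for Aldoa. Of 27025 windows of this length, 1 per gene, 16.6% held a match. Members of the list that were not called were not searched, so the matches do not set called members apart from the others. These matches describe letters in a window and are not measured binding sites.

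Several antioxidant genes were called with a lower change in eosinophils. Of 24 antioxidant, iron and heme genes, 6 were called with a lower change in eosinophils (2.11% of all tested genes). Among these were Gsr, Txnrd1, Slc7a11, Cybb and Srxn1. Cd163 was the 1 called with a higher change. Without naive eosinophil library 2 the lower calls were 2. The median difference of the list was −0.41, and 5 of the 24 were positive. Glutathione reductase Gsr (chromosome 8, 33652523 to 33698163) held 2881 and 5236 scaled reads in naive eosinophils and 1279 to 2526, median 1776, in tumor ones. In naive macrophages it held 55.7 to 106, median 92.2, and in tumor macrophages 430.2 ± 127 (SD, n = 6), with 297 the lowest. Both cell types were without overlap and in opposite directions, with a difference of −3.33 ± 0.38 (adjusted p = 1.42e-05). Naive eosinophils thus had 4609% of the macrophage level and tumor eosinophils 440.0%.

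The voltage-gated proton channel Hvcn1, which keeps the NADPH oxidase running by carrying charge out of the cell, had the second smallest p of this direction (chromosome 5, 122206804 to 122242297). It held 726 and 610.3 scaled reads in naive and 145 to 230.5 in tumor eosinophils, and 227 to 415 in macrophages of naive colon and 448 to 698 in those of tumors. The difference was −2.76 ± 0.31 (adjusted p = 1.11e-05), again with no overlap within either cell type. Cybb, which encodes a subunit of that oxidase, differed by −1.16 with an eosinophil change of −1.11 and a macrophage change of 0.05. The cystine importer Slc7a11 had another form: its macrophage change was 3.66 ± 0.37 and its eosinophil change 0.76 ± 0.49 (difference −2.90 ± 0.61, adjusted p = 0.00863). Txnrd1 lost the call without naive eosinophil library 2 (adjusted p = 0.0509), and Slc7a11 with limma-voom (0.0941).

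The cytokine feedback inhibitor Socs2 and the cytokine Osm were called with a lower change in eosinophils. Socs2, which restrains cytokine receptors that signal through STAT5 (chromosome 10, 95385362 to 95417180), held 2073 and 2439.5 scaled reads in naive eosinophils and 147 to 612, median 310.2, in tumor eosinophils. Naive macrophages held 206, 186, 282, 275 and 314 and tumor macrophages 457 to 716, median 513. The ranges were apart in both cell types, and the difference was −3.99 ± 0.46 (adjusted p = 1.44e-05). Osm, a cytokine of the interleukin-6 family, held 798 and 878 in naive and 246 to 551 in tumor eosinophils, against 105 to 189 in macrophages of naive colon and 346 to 826 in those of tumors (difference −3.15 ± 0.40, adjusted p = 6.25e-05). Tumor eosinophils thus had the lower levels and tumor macrophages the higher ones. Of 16 genes on the list of STAT targets and SOCS feedback, 2 had a lower change in eosinophils, Socs2 and Osm, and 1 a higher one, Bcl6 (1.90 ± 0.45, adjusted p = 0.0204).

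Among the other genes with the smallest p, the glycogen phosphorylase Pygl (−2.71 ± 0.39), the carboxypeptidase Cpd (−2.20 ± 0.30), the stress gene Gadd45a (−3.16 ± 0.46) and the flippase Atp11a (−2.27 ± 0.35) had opposite changes in the cell types and groups that did not overlap. The cell cycle kinase Cdk6 differed by −2.03 ± 0.31, with a change of −2.13 in eosinophils and −0.10 in macrophages. Transglutaminase Tgm2, a cross-linker of matrix proteins (chromosome 2, 158116402 to 158146436), differed by −3.03 ± 0.42 (adjusted p = 1.63e-04). Its eosinophil groups overlapped at 22969 and 29395 scaled reads in naive and 7813 to 27082 in tumor libraries, while macrophages went from 406 to 601 to a range of 1739.8 to 3008. The matrix protein Tgfbi (−1.94 ± 0.33) was called as well, and these with Thbs1 were the 3 called of 26 matrix and tumor macrophage genes, whose median was −0.37. Adjusted p-values of Pygl, Cpd, Gadd45a, Atp11a and Cdk6 were between 1.20e-04 and 6.01e-04.

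Of 28 AP-1 and immediate-early genes, 3 were called with a lower change in eosinophils (2.11% of all tested genes) and none with a higher one. They were Fosl2 (−1.60 ± 0.27, adjusted p = 0.00152), Cebpb (−2.33 ± 0.46, 0.00545) and the phosphatase Dusp1 (−1.47 ± 0.35, 0.0198). Cebpb, a transcription factor of granulocytes and macrophages, held 1705 and 4339 scaled reads in naive eosinophils and 682 to 1974 in tumor eosinophils, ranges that overlap. Its macrophage values went from 363 to 752 in naive colon to 848 to 1679 in tumors, without overlap. The median of the list was −0.66, with medians of −1.10 in eosinophils and −0.45 in macrophages. Cebpb and Dusp1 were not called without naive eosinophil library 2 (adjusted p = 0.166 for Cebpb). The interleukin-1 receptor antagonist Il1rn differed by −2.45 ± 0.50 (adjusted p = 0.00673), with a macrophage change of 2.64 ± 0.30 and an eosinophil change of 0.19 ± 0.40.

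**Figure D2:**
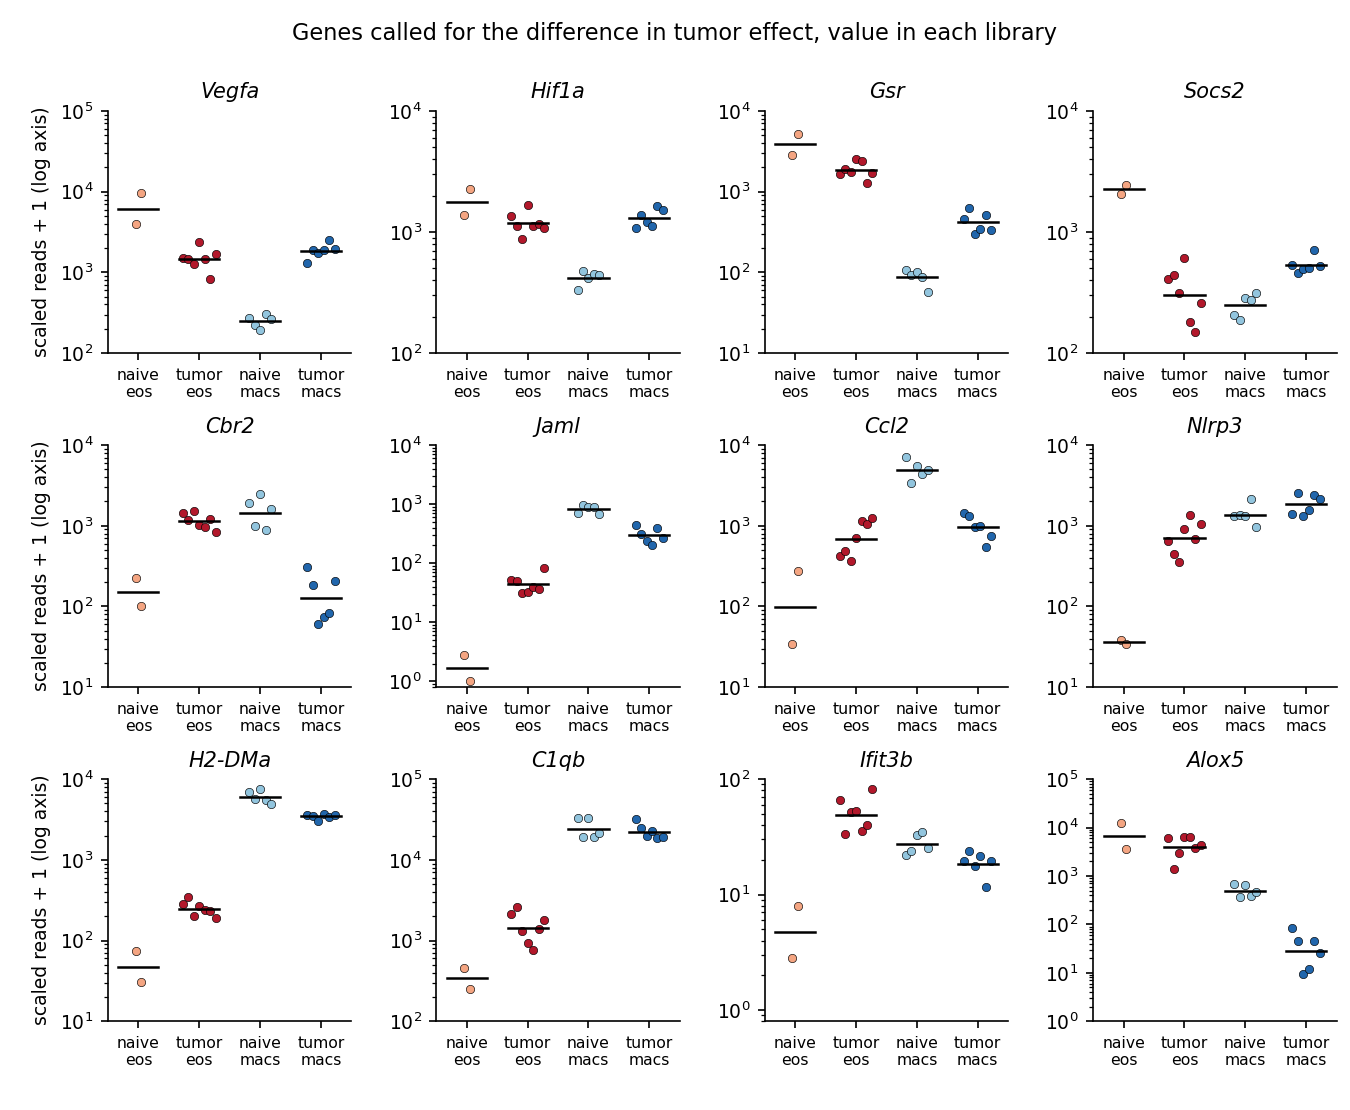
Each panel is 1 gene and each point 1 library, in scaled reads + 1 on a log axis, for naive (2) and tumor (7) eosinophils and naive (5) and tumor (6) macrophages; bars are means on the log scale. In Vegfa, Gsr, Socs2, Cbr2, Jaml, Ccl2 and H2-DMa the groups are apart within both cell types and move in opposite directions.

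Several chemokines of the CC family were called with a higher change in eosinophils. Ccl2 and Ccl7 bind CCR2 and draw monocytes, Ccl17 and Ccl22 bind CCR4 on T cells, and Ccl4 is an inflammatory chemokine of macrophages. Of 17 CC chemokines tested, these 5 were called with a higher change in eosinophils (1.79% of all tested genes) and none with a lower one. In each of the 5 the eosinophil change was positive and the macrophage change negative. The median difference of the list was 1.05, with 13 of 17 positive, and it was also 1.05 with groups that had no read set to 3 reads per library.

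Ccl2 (chromosome 11, 82035571 to 82037453) held 33.6 and 276 scaled reads in naive eosinophils and 366 to 1236, median 702, in tumor ones. Naive macrophages held 7045, 3365, 5462, 4419 and 4943, and tumor macrophages 549 to 1431, median 978. Tumor values were all higher in eosinophils and all lower in macrophages (difference 5.19 ± 0.68, adjusted p = 9.50e-05). The difference ran from 3.67 without naive eosinophil library 1 to 6.74 without library 2 and was called in both cases. Its neighbour Ccl7 (82045712 to 82047525) held 23.6 and 25.9 in naive eosinophils and 42.6 to 203, median 113, in tumor eosinophils. In macrophages it went from 1165, 693, 954, 1072 and 878 to a range of 74.7 to 235 (difference 4.61 ± 0.54, adjusted p = 1.93e-05). In tumors the eosinophil means of Ccl2 and Ccl7 were 77.2 and 70.8% of the macrophage means, and in naive colon 3.07 and 2.60%.

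Ccl4 (difference 2.65 ± 0.51, adjusted p = 0.00387) had overlapping macrophage groups. Ccl17 had no read in either naive eosinophil library and 0.744 to 28.1 scaled reads in tumor eosinophils, so the size of its difference, 4.55 ± 0.87, depends on the pseudocount. Among CXC chemokines, 2 of 12 were called with a higher change in eosinophils, Cxcl16 (1.77 ± 0.42) and Cxcl1 (1.71 ± 0.49), and Cxcl3 had a lower one (−5.12 ± 1.03, adjusted p = 0.00602). Cxcl3 went from 389.8 and 722 scaled reads to 42.4 to 314 in eosinophils, while its macrophage groups, 6.23 to 69.9 and 53.3 to 417, overlapped. Cxcl16 was 0.91 (adjusted p = 0.15) without naive eosinophil library 1, and Cxcl3 was not called without library 2 (adjusted p = 0.0974). Cxcl1 was at the threshold (adjusted p = 0.0490) and lost its call in 18 of 36 alternatives.

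Nlrp3, Tnf and Cd14, which serve innate sensing and the first cytokine response, had a higher change in eosinophils. The inflammasome sensor Nlrp3 (chromosome 11, 59541568 to 59566956) held 37.3 and 32.8 scaled reads in naive eosinophils and 358 to 1362, median 675, in tumor eosinophils. Naive macrophages held 1329, 1351, 1315, 2140.0 and 954, and tumor macrophages 1323 to 2572. Eosinophil groups were apart and macrophage groups overlapped, with a difference of 3.88 ± 0.48 (adjusted p = 3.71e-05). Tnf showed the same form, with 91.8 and 69.0 in naive and 339 to 1260.0 in tumor eosinophils, 523 to 835 in macrophages of naive colon and 769 to 1693 in those of tumors, and a difference of 2.78 ± 0.45 (adjusted p = 0.00112). The lipopolysaccharide receptor Cd14 differed by 2.76 ± 0.58 (adjusted p = 0.00785), from an eosinophil change of 3.87 and a macrophage change of 1.11. On the list of 20 Toll-like receptor genes it was the 1 called in this direction, and Irak1 the 1 called in the other. With limma-voom neither Cd14 nor Irak1 was called. The acute-phase copper oxidase Cp (3.66 ± 0.42, adjusted p = 1.42e-05) and the secreted protein Wfdc17 (3.80 ± 0.66, adjusted p = 0.00170) were the 2 called of 15 acute-phase genes.

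Of 23 NF-kB subunits, inhibitors and targets, 5 were called with a higher change in eosinophils (1.79% of all tested genes). They were Cd83, Tnip3, Traf1, Ier3 and Icam1, and none was called with a lower change. The median difference was 0.28, and with limma-voom no member of the list was called. Differences of the 5 were between 1.38 and 2.37, and the list had 1 call without naive eosinophil library 2. Of 20 genes of the interleukin-1 family and inflammasome, Nlrp3 and Casp4 (1.52 ± 0.37) were called higher in eosinophils and Il1rn and Gsdmd (−0.96 ± 0.27) lower. The calls were 2 higher and 0 lower without naive eosinophil library 2 (Il1rn, adjusted p = 0.15), and Gsdmd lost its call in 25 of 36 alternatives. Il10, a restraining cytokine made by gut macrophages, held 5.45 and 0 scaled reads in naive and 1.29 to 17.9 in tumor eosinophils, which overlap. Its macrophage mean was 1461 ± 363 (SD, n = 5) in naive colon and 642 ± 189.8 (n = 6) in tumors, without overlap. The difference was 3.09 ± 0.78 (adjusted p = 0.0264), from an eosinophil change of 1.89 that depends on the pseudocount and a macrophage change of −1.20. It was 1.79 (adjusted p = 0.417) without naive eosinophil library 2.

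Most of the MHC class II genes tested were called with a higher change in eosinophils. These molecules present peptides to CD4+ T cells; H2-DMa and H2-DMb1 exchange the peptide, and Cd74 is the invariant chain that guides assembly. Of 13 members, 7 were called with a higher change in eosinophils (1.79% of all tested genes) and none with a lower one. The called members were H2-DMa, H2-Eb1, H2-Aa, Cd74, H2-DMb1, H2-Ab1 and H2-Ob. In each of the 7 the signs were opposite. The median difference was 2.27, with medians of 1.77 in eosinophils and −0.60 in macrophages, and 12 of 13 were positive. Without naive eosinophil library 2, 4 members were called.

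H2-DMa (chromosome 17, 34119541 to 34139101) held 72.7 and 29.3 scaled reads in naive and 187 to 347, median 236, in tumor eosinophils. Naive macrophages held 7012, 5748, 7577, 5437 and 4873, and tumor macrophages 3052 to 3741, median 3528. Groups were apart in both cell types, with a difference of 3.18 ± 0.33 (adjusted p = 4.50e-06). H2-Eb1 behaved likewise, from 839.6 and 403 to 1499.7 to 2977 in eosinophils and from 56287 to 82307 to 39182 to 50558 in macrophages (2.56 ± 0.34, adjusted p = 1.08e-04). The transactivator of these genes, Ciita, was near the threshold (1.29 ± 0.36, adjusted p = 0.0460) and lost its call in 18 alternatives. Most levels in eosinophils stayed far under those in macrophages. H2-DMa went from 0.832% of the macrophage mean in naive colon to 7.2% in tumors, and H2-Eb1 from 0.872 to 4.94%. H2-Ob, with no read in naive eosinophils and 0 to 187 scaled reads in tumor ones, was at 25.9% in tumors.

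Complement C1q and some other macrophage markers were also called with a higher change in eosinophils. Of 18 complement genes, C2, C1qc, C1qb and C1qa were called with a higher change in eosinophils (1.79% of all tested genes). None was called with a lower one, and the median difference was 0.76. The calls were 1 without naive eosinophil library 2, with none of the C1q genes, and 0 with limma-voom. C1qb held 457 and 252 scaled reads in naive and 760.1 to 2585 in tumor eosinophils, and its macrophage groups overlapped between 18724 and 32653 (difference 2.19 ± 0.46, adjusted p = 0.00820). C2 differed by 5.14 ± 0.82 (adjusted p = 8.78e-04), from 0 and 8 reads in naive eosinophils to a range of 33.7 to 226 scaled reads in tumor ones, where its mean was 277% of that in tumor macrophages, and by 3.18 without naive eosinophil library 1. On the list of 14 macrophage markers, 7 were called with a higher change in eosinophils (C1qa, C1qb, C1qc, Cx3cr1, Apoe, Lyz2 and Aif1) and 2 with a lower one, Adgre1 and Cd63. None of the 14 was called without naive eosinophil library 2, and with limma-voom 1 was called, with a lower change. The median marker level in eosinophils was 1.34% of the macrophage level in naive colon and 3.08% in tumors, and none of the 14 was at 0 in either eosinophil group. The summed marker level of the eosinophil libraries was 1044 and 1237 CPM in naive and 1074 to 1686 in tumor libraries. That sum includes Adgre1 and Cd63, whose eosinophil means fell from 3433 to 705 and from 1939 to 1345 scaled reads. The median log2 change of the 14 markers was 1.32 in eosinophils and 0.15 in macrophages, so the sum does not stand for the typical marker. The part of macrophage transcripts in the MHC class II and complement differences was not tested.

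**Figure D3:**
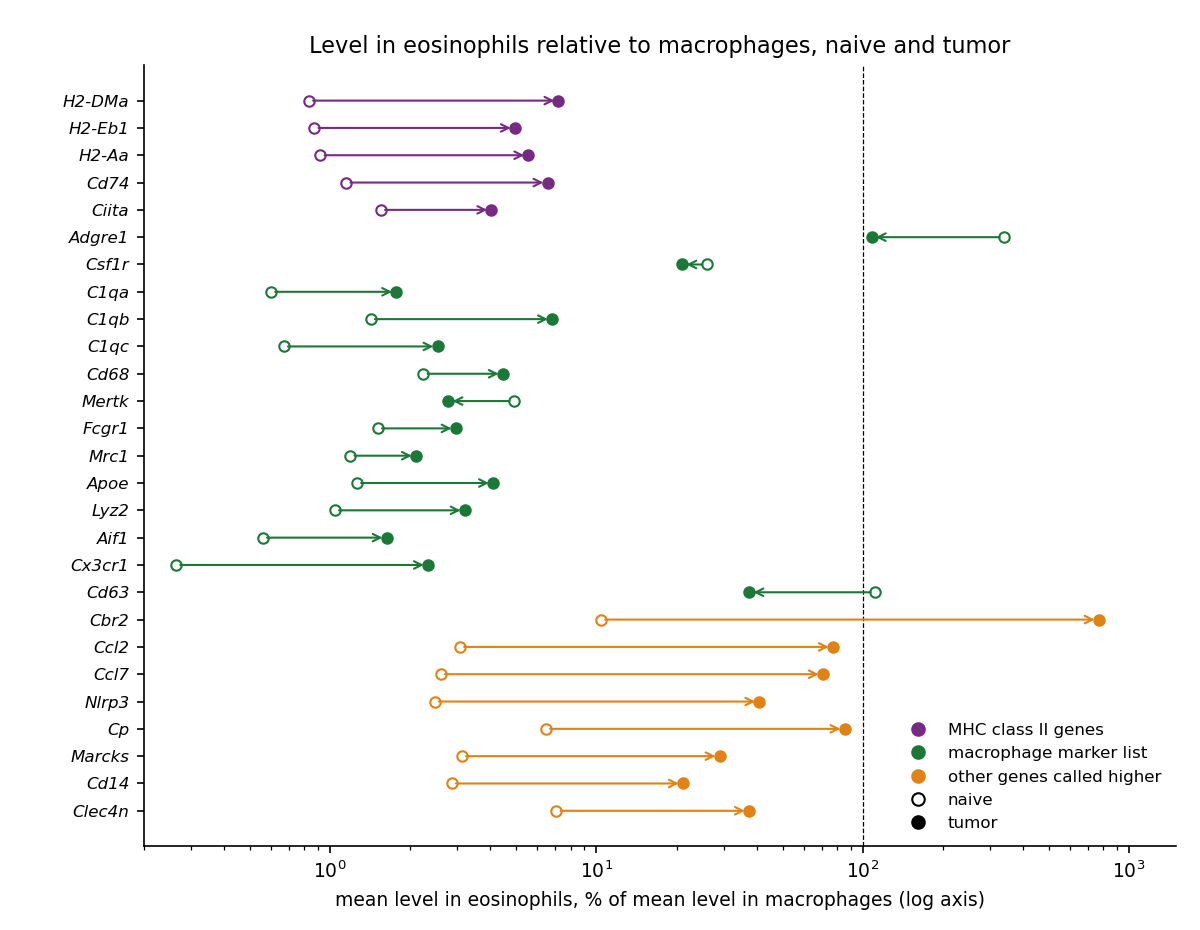
Mean level in eosinophils as a percentage of that in macrophages (log axis), in naive colon (open) and tumors (filled), for MHC class II genes with Ciita, the 14 macrophage markers and other genes called higher. The MHC class II genes plotted lie between 4.94 and 7.2% in tumors and their transactivator Ciita at 4.03%, whereas Ccl2 and Cp reach 77.2 and 85.4% and Cbr2 reaches 769%.

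On the list of resident gut macrophage genes, the macrophages moved more than the eosinophils by the median log2 change. Of 25 members of that list, 10 were called with a higher change in eosinophils (1.79% of all tested genes). Adgre1 was the 1 called with a lower change. The median difference was 2.15, with medians of 0.26 in eosinophils and −1.38 in macrophages, and it was 1.31 with groups that had no read set to 3 reads per library. Without naive eosinophil library 2, as with limma-voom, the calls were 2 and 0. Of the 11 called, 4 had means under 10 scaled reads in both eosinophil groups, so that they had little room to move in eosinophils. These were Cd163, Cd209f, Cd209d and Folr2, scavenger, lectin and folate receptors of resident macrophages. Cd163, the receptor for haemoglobin bound to haptoglobin, held 206 to 435 scaled reads in naive and 2.08 to 4.68 in tumor macrophages. It had no read in naive and at most 5.56 scaled reads in tumor eosinophils, which makes the fitted difference of 7.81 ± 0.74 (adjusted p = 1.20e-06) a value that depends on the pseudocount.

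The carbonyl reductase Cbr2 was unlike these, because eosinophils held many reads of it. It had 249 and 58 reads in the naive eosinophil libraries, the larger of which came to 226 scaled reads, and 836 to 1511 scaled reads, median 1161, in tumor eosinophils. Naive macrophages held 1927, 978, 2466, 882 and 1595, and tumor macrophages 59.0 to 304, median 132. Values moved in opposite directions with no overlap within a cell type, and the difference was 6.43 ± 0.60 (adjusted p = 1.20e-06), called in all alternatives between 5.9 and 7.0. Cbr2 (chromosome 11, 120729489 to 120732114) thus had 10.4% of the macrophage level in naive and 769% in tumor eosinophils. Jaml, an adhesion molecule of leukocyte passage through epithelium (chromosome 9, 45079183 to 45108534), had the smallest p of all genes. Naive eosinophils had 2 and 0 reads of it, and tumor eosinophils 30.9 to 83.4 scaled reads, so that the fitted size depends on the pseudocount. Naive macrophages held 700.0, 965, 907, 901 and 669, and tumor macrophages 206 to 439.6 (difference 6.18 ± 0.47, adjusted p = 6.84e-08; 0.107 with limma-voom). Scimp, an adaptor protein of antigen-presenting cells, had 0 and 1 reads in naive eosinophils and 33.4 to 90.0 scaled reads in tumor eosinophils, with a macrophage change of 0.28 ± 0.29 (difference 4.75 ± 0.49, adjusted p = 3.79e-06).

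The kinase substrate Marcks (3.12 ± 0.34, adjusted p = 7.40e-06) and the ADP receptor P2ry13 (4.10 ± 0.54, adjusted p = 1.08e-04) were called in all alternatives. Marcks held 45.4 and 62.1 scaled reads in naive and 276 to 777 in tumor eosinophils, and 1591 to 1913 in macrophages of naive colon and 1423 to 1547 in those of tumors. P2ry13 held 17.3 and 39.7 in naive and 115 to 549 in tumor eosinophils, and 275 to 414 in macrophages of naive colon and 120.4 to 250.2 in those of tumors. C-type lectin and Fc receptors had 6 of 18 members called with a higher change in eosinophils (1.79% of all tested genes). Among them were Clec4a3 (3.43 ± 0.46), Fcgr4 (2.81 ± 0.51), Clec4a1 (3.68 ± 0.73) and Clec4n (2.37 ± 0.51). The calls were 3 without naive eosinophil library 2 and 0 with limma-voom, and Clec4a1 ran from 1.63 (adjusted p = 0.0948) without library 2 to 5.82 without library 1. Fcgr3, the low-affinity receptor for immunoglobulin G, had a lower one (−1.50 ± 0.36, adjusted p = 0.0204). The transcription factor Maf, which drives Il10 and resident macrophage genes, differed by 2.94 ± 0.53 (adjusted p = 0.00253), with 1.53 in eosinophils and −1.42 in macrophages, and by an adjusted p of 0.0914 without naive eosinophil library 2. The monocyte gene Ly6c2 differed by 4.51 ± 0.98 (adjusted p = 0.0102), with 44.1 ± 16.0 scaled reads (SD, n = 2) in eosinophils of naive colon and 617 ± 500.4 (n = 7) in those of tumors. Its macrophage groups overlapped, at 330.2 ± 102 (n = 5) in naive colon and 166 ± 126 (n = 6) in tumors. With limma-voom none of the 8 monocyte markers was called, Ly6c2 included.

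Some type I interferon-stimulated genes were called with a higher change in eosinophils. These genes encode antiviral proteins, among them the Ifit proteins that bind foreign RNA and the Ifitm proteins that block entry of viruses through membranes. Of 26 members, 9 were called with a higher change in eosinophils (1.79% of all tested genes) and none with a lower one. The called members were Ifit3b, Ifit3, Ifitm2, Ifitm3, Irf9, Oasl1, Ifitm6, Oas2 and Ifit1. The median difference was 1.31, with medians of 1.72 in eosinophils and 0.27 in macrophages, and 22 of 26 were positive. Ifit3b held 1.82 and 6.90 scaled reads in naive and 32.7 to 81.2, median 50.9, in tumor eosinophils. In macrophages it held 20.8, 22.7, 32.1, 33.6 and 24.4 in naive colon and 10.6 to 22.9 in tumors (difference 3.95 ± 0.55, adjusted p = 2.05e-04). Eosinophil groups were apart and macrophage groups overlapped.

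Ifitm3 had more reads, with 1135 and 984 in naive and 3761 to 8623, median 4683, in tumor eosinophils, against 1450.0 to 2399 in macrophages of naive colon and 2146 to 4599 in those of tumors (1.71 ± 0.38, adjusted p = 0.0122). Ifitm2 differed by 1.87 ± 0.39 (adjusted p = 0.00770). Not called were Isg15 (0.20), whose eosinophil change was 1.34, and Irf7 (0.80). Among interferon-gamma response genes, 3 of 27 were called with a higher change in eosinophils, Gbp3 (3.01 ± 0.51), Gbp4 (2.55 ± 0.67) and Ciita, with a median of 1.10, while Nos2 differed by −0.90 with an adjusted p of 0.596. Gbp4 was not called when either naive eosinophil library was left out (adjusted p = 0.0940 and 0.0960). Interferon-gamma calls in this direction were 1 without naive eosinophil library 2, 5 without library 1, 8 without tumor eosinophil libraries 2 and 3, and 0 with limma-voom. Calls of the type I list were 2 without naive eosinophil library 2, 8 without library 1 and 1 with limma-voom. They were 12 without tumor eosinophil libraries 2 and 3.

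Promoters of some called interferon-stimulated genes are shown. These genes too were selected by their call in the same direction. Windows are again the 250 bases before the start in RefSeq (GRCm38.p6), and capitals mark GAAA followed, after any 2 bases, by GAAA, or the reverse complement of this on the other strand. This is the core of the interferon-stimulated response element.
Ifit3, chr19:34583279-34583528, plus strand: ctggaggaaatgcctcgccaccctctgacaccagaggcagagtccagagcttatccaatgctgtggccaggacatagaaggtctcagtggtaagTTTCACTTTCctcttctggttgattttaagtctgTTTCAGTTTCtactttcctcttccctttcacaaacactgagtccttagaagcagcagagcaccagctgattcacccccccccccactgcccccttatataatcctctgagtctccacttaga
Ifit3b, chr19:34607707-34607956, plus strand: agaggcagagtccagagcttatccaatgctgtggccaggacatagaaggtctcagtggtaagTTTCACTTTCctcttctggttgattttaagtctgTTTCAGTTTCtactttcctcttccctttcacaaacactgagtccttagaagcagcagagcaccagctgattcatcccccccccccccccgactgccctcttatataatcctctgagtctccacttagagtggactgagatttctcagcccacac
Ifit1, chr19:34640639-34640888, plus strand: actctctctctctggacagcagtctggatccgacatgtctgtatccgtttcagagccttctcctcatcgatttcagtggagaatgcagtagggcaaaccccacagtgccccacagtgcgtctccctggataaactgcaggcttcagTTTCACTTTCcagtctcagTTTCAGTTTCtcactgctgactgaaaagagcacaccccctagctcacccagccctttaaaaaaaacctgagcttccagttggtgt
Of the 9 called members, 8 had a window, and 4 of these held the motif: Ifit3, Ifit3b and Ifit1 with 2 matches each and Ifitm2 with 1. The motif was in 3.0% of 27025 windows, 1 per gene at the first listed start. Members of this list that were not called were not searched either. Ifit3 and Ifit3b are near-identical copies, as their windows show, so these are not separate observations, and reads may have been split between them. Ifit1 differed by 2.02 with an adjusted p of 0.0405.

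Members of the list of eosinophil receptors and enzymes were called in both directions. Of 24 surface, cytokine and lipid receptors and enzymes, 4 were called with a lower change in eosinophils (Cd300lf, Sirpa, Csf2rb2 and Gpr183) and 3 with a higher one (Alox5, Il13ra1 and Ltc4s). The median difference was −1.04. There was 1 call in each direction without naive eosinophil library 2, and Gpr183 lost its call in 15 of 36 alternatives. The inhibitory receptor Cd300lf (−2.61 ± 0.41, adjusted p = 7.06e-04) had a change of 2.46 in macrophages and −0.15 in eosinophils. Siglecf, Ccr3 and Il5ra, which define the eosinophil and had group means of at most 17.3 scaled reads in macrophages, had eosinophil changes of −1.92, −1.55 and −1.85. Their differences of −1.08, −1.12 and −1.64 were not called. Alox5 makes the precursor of leukotrienes. It held 12598 and 3557 scaled reads in naive and 1389.9 to 6398 in tumor eosinophils, which overlap. In macrophages it held 681, 373, 646, 378 and 463 in naive colon and 8.60 to 83.3, median 34.5, in tumors, and the difference was 3.37 ± 0.79 (adjusted p = 0.0185; 0.272 without naive eosinophil library 2). Ltc4s, the next enzyme on the way to cysteinyl leukotrienes, differed by 2.94 ± 0.78 (adjusted p = 0.0357), with a macrophage change of −1.79. It was 1.55 (adjusted p = 0.254) without naive eosinophil library 1 and 4.37 without library 2.

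Of 6 eosinophil granule genes tested, the ribonucleases Ear2 and Ear6 were called with a higher change in eosinophils, and all 6 differences were positive, with a median of 3.64. Ear6 (3.75 ± 0.99, adjusted p = 0.0348) held 104 and 169 scaled reads in naive and 225 to 3594, median 399.8, in tumor eosinophils, where library 4 stood far above the others, and at most 21.4 in macrophages. Ear2 (7.03 ± 1.45, adjusted p = 0.00685) had 0 and 1 reads in naive eosinophils and 0.998 to 243 scaled reads in tumor ones, which overlap. Its macrophage values went from 24.4 to 188 in naive colon to 2.34 to 15.7 in tumors, without overlap. The difference thus joins an eosinophil change of 3.69 ± 1.16 and a macrophage change of −3.34 ± 0.87. Ear genes are near-identical, so the assignment of reads to a copy is uncertain. With limma-voom none of the 6 granule genes was called. The list had 2 calls without tumor eosinophil library 4, and 1 without naive eosinophil library 2 or without naive macrophage libraries 1 and 5. Neutrophil genes had 3 of 20 members called with a higher change in eosinophils (1.79% of all tested genes). These were the formyl peptide receptors Fpr1 and Fpr2 and Csf3r, and Padi4 was the 1 called with a lower change. The higher calls were 1 without naive eosinophil library 1, and 0 with limma-voom or without naive macrophage libraries 1 and 5. Fpr1 lost its call in 18 of 36 alternatives and ran from 2.2 without naive eosinophil library 1 to 6.63 without library 2. S100a8 and S100a9, the main neutrophil alarmins, had large changes in both cell types, 4.42 and 4.35 in eosinophils and 4.55 and 5.17 in macrophages, and were not called. Neutrophil markers summed to 6334 and 11453 CPM in naive and 4581 to 14526 in tumor eosinophils. Their median log2 change was 3.41 in eosinophils and 2.47 in macrophages, so the sum does not stand for the typical marker. The part of neutrophil transcripts in these differences was not tested.

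Several lists had no call in the reported fit. None was called among 16 heat shock genes (median −0.39), 18 MHC class I and immunoproteasome genes (0.56), 12 arginine and nitric oxide enzymes (−0.55), 30 nuclear respiratory chain genes (−0.07), 13 mitochondrially encoded transcripts (0.37) and 25 cell cycle genes (0.70). In that order, 1, 3, 2, 0, 0 and 4 members had an unadjusted p under 0.05 (limma), and edgeR called none either. Without naive eosinophil library 1, calls higher and lower were 2 and 0 for MHC class I, 1 and 2 for arginine enzymes, 4 and 2 for the respiratory chain and 2 and 0 for the cell cycle. Arg1, which consumes arginine, had changes of 4.63 in eosinophils and 3.98 in macrophages and a difference of 0.65. B2m, the light chain of MHC class I, differed by 0.01 ± 0.44 (adjusted p = 0.994). A p that misses the threshold does not show that these changes were equal. Of 32 ribosomal protein genes, 31 had positive differences, and 2 were called, Rps14 (1.51 ± 0.37, adjusted p = 0.0233) and Rpl19 (adjusted p = 0.0335). The ribosomal calls were 8 without naive eosinophil library 1, 0 without library 2, 6 with DESeq2 size factors and 7 with column sums that leave out mitochondrial and immunoglobulin genes. Epithelial markers had no call among 16 with limma or edgeR, 0 unadjusted p under 0.05 and a median of 0.01.

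**Figure D4:**
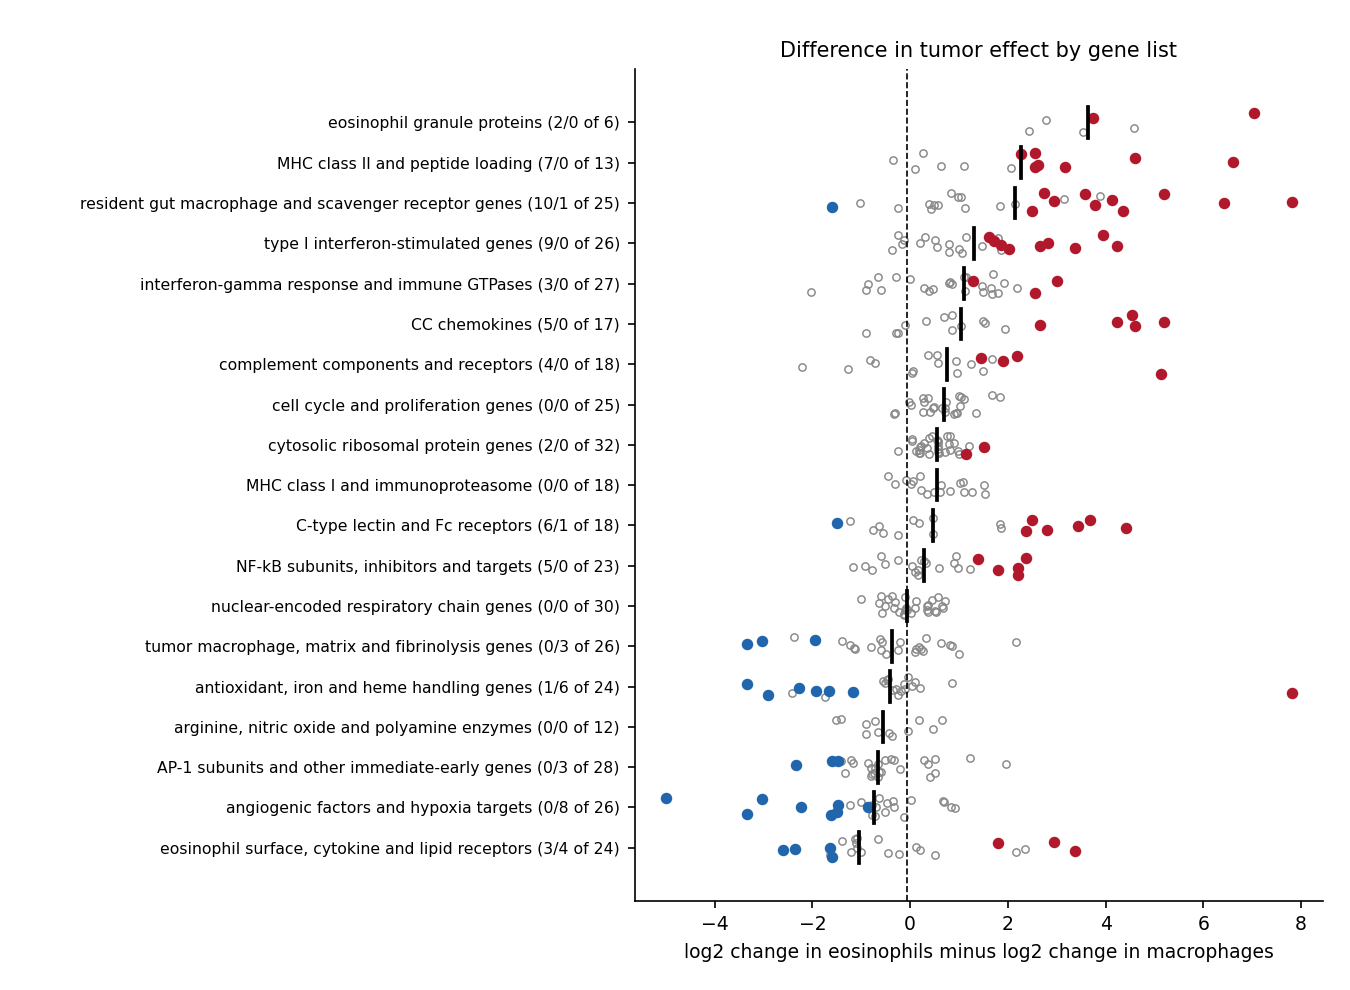
Difference in log2 change, eosinophils minus macrophages, for members of 19 gene lists; filled points are called members, open points others, black bars list medians and the dashed line the median of all tested genes (−0.06). Numbers beside each name give members called higher / lower of those tested: MHC class II genes sit to the right and angiogenic and hypoxia genes to the left.

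How many genes were called depended on the naive eosinophil group. Without naive eosinophil library 2, 164 genes were called and 134 of the 610 were among them. Without library 1, 1768 were called, 534 of the 610 among them, and the single remaining library was then assumed to vary like the other groups. Leaving out any other library gave 406 to 690 calls, the fewest without naive macrophage library 3. The direction split depended on the scaling: 45.9% of the calls had the higher change in eosinophils with TMM, 61.6% with DESeq2 size factors and 66.5% with column sums that leave out mitochondrial and immunoglobulin genes, for which the median over all genes was −0.06, 0.07 and 0.16. Of the 123 called genes described by name or chosen for naming, 116 could be tested in all 36 alternatives and 34 were called in all of them. None of the 123 changed direction in an alternative that tested it. Those called throughout included Vegfa, Hif1a, Gsr, Socs2, Osm, Hvcn1, Slc2a1, Cbr2, Ccl2, Ccl7, Nlrp3, Tnf, H2-DMa and H2-Eb1.

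**Figure D5:**
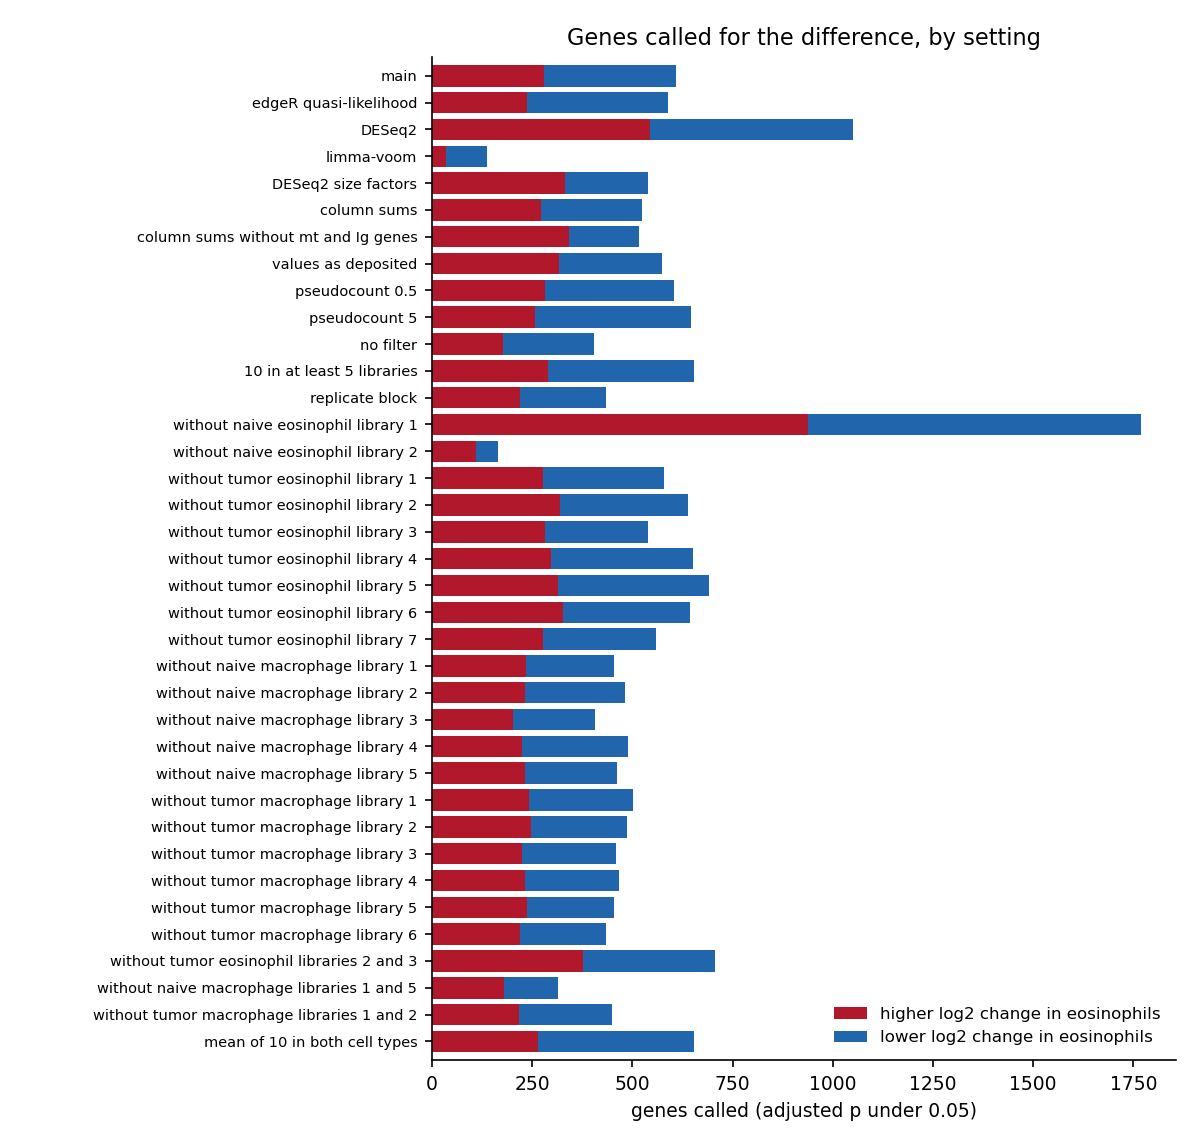
Genes called at an adjusted p under 0.05 in the reported fit (top bar) and in each alternative, divided by direction of the difference. The bar without naive eosinophil library 2 reaches 164 and the bar without library 1 reaches 1768, against 610.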

How the data were processed

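RNA of 20 libraries was sequenced from the 3′ end by CEL-Seq, per the labels' protocols. The submitters' processing notes list HTSeq 0.6.1, the aligners TopHat2 2.1.0 and Bowtie2 2.2.6, DESeq2 1.14.1, the read tools Trim Galore and FastQC 0.11.5, and GRCm38.p5. The authors deposited 1 table per cell type whose values are a signal: gene counts divided by a size factor per library. The low values gave the value of 1 read, and 100.0% of 374526 nonzero values came out whole within 0.1 read. The sources used here do not give how technical replicates were combined or whether counting used strand.

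From the recovered reads, TMM factors over all libraries gave scaled reads. Genes with 10 scaled reads in at least 2 libraries were tested with limma 3.58.1 (R 4.3.3) on log2(scaled reads + 1), in 1 fit of the 4 groups. The contrast was tested with Benjamini-Hochberg adjustment over all tested genes at 0.05. Since the deposited values are normalised, edgeR 4.0.16 on the recovered reads was an alternative, and it called 588 genes. DESeq2 1.42.0, limma-voom, other scalings, pseudocounts, filters and left-out libraries were others. The script was tested on simulated data. Genes were named by a rule: in each direction, the 15 called genes with the smallest p, the 5 with the largest difference among well-covered genes, the 8 with the largest opposite changes, and up to 4 called members of each of 47 lists, with the 2 highest members of lists without a call. Other list members were named after their values were seen, and some genes are not reported here. The contrast, genes and lists were chosen with earlier results of these data known. Positions are from GENCODE M21, which held 94.3% of the names. Reads of near-identical copies (Ifit3 and Ifit3b, Ear, Mcpt, Hba and Hbb genes) may be split between them.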

Additional observations from a re-analysis of the deposited data

Results flagged for a closer look

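The tumor effect differed between eosinophils and macrophages in 610 genes by the test of the difference itself (limma). The 2 naive eosinophil libraries could not be checked for outliers, since 2 values do not show which of them stands apart. In the other groups, single libraries also stood apart from the rest of their group by the gap to the nearest value. This held for 31 of 428 group checks (7.24%), where chance gives about 1 in 20. Tumor eosinophil library 7 accounted for 6 of them, with 83.4 scaled reads of Jaml, 187 of H2-Ob, 226 of C2, 777 of Ltc4s, 209 of Cd83 and 307 of the T cell receptor gene Trbc2, each the highest of its group. Tumor eosinophil library 4, which also had the highest sum of eosinophil markers, held 243 of Ear2 and 3594 of Ear6. Library 5 held 251 of Ccdc125 and 2342 of Dusp1, library 3 held 14 of Aifm3 and library 2 held 0.744 of Cd209a.

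Among naive macrophages, library 5 held 9287 scaled reads of Hbb-bs, 7392 of Hba-a1 and 1498 of Tgfbi, and library 1 held 7621 of Ccl4 and 114 of Pecam1. Library 3 held 415 of Hvcn1 and 683 of Wfdc17, library 4 held 435 of Cd163, and library 2 held 1715 of Cox6c and 0.598 of Padi4. Among tumor macrophages, library 1 held 615 of Mcpt1, 550.0 of Mcpt2 and 31.2 of P3h2, library 5 held 716 of Socs2 and 205 of Cdk6, and library 2 held 2913 of Calr. Library 6 held 748 of Cp, 825 of Casp4 and 55921 of mt-Nd4.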

How the results depend on the processing

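The 123 called genes chosen for naming kept their direction in each of the 36 alternatives that tested them (116 were tested in all, 7 were not tested in 1 or 2), of which 4 were chosen after seeing the data. The counts of 610 called genes, 280 higher and 330 lower in eosinophils, moved by over 1.5 times in several. DESeq2 called 1051 (544 higher, 507 lower), limma-voom with quality weights 136 (34 and 102), and no filter 403 (176 higher). Genes with a lower change were 207 with DESeq2 size factors and 173 with column sums that leave out mitochondrial and immunoglobulin genes. Leaving out 1 library gave 164 to 1768 calls, 110 to 938 higher and 54 to 830 lower. The extremes were naive eosinophil libraries 2 and 1, and 406 without naive macrophage library 3 was the next. Without naive macrophage libraries 1 and 5, 315 were called (180 and 135); without tumor eosinophil libraries 2 and 3, 706. With the replicate number as a block, 434 were called (220 and 214). The labels do not say that a number marks a shared animal. Deviations of 22 same-numbered pairs correlated between −0.20 and 0.129 (3 over 0.1), and 5 of 20 libraries correlated best with their own number. Among them are pairs of a naive with a tumor library, which cannot share an animal. Same-numbered pairs of tumor eosinophils and tumor macrophages ran from −0.079 to 0.129. This check therefore cannot decide whether a number marks a shared animal. The cause of these shifts was not tested. The naive eosinophil group of 2 libraries limits the precision of every difference, and low read numbers limit that of Jaml, Scimp, Cd163, Ccl17, H2-Ob and Ear2.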
